A study of Mus musculus with 9 samples.

Results

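Transcripts of the core splicing machinery were followed in growing mouse oocytes that carried 2 X chromosomes (XX), a single X (XO), or an X and a Y (XY). The genes described here are the autosomal genes, on chromosomes 1 to 19, named Srsf, Snrp, Sf3a or Sf3b with a number or letter, with the imprinted gene Snrpn left out. This rule on names found 32 of the 28051 genes in the normalized matrices. They are 11 genes of SR proteins, 7 of Sm proteins, 4 of proteins particular to the U1 or U2 snRNP, 3 of SF3A, 6 of SF3B, and Snrpert, a processed pseudogene copied from Snrpe. The study asked how the sex chromosome complement affects transcription in the oocyte during follicular growth. Each of the 9 samples (XX1 to XX3, XO1 to XO3 and XY1 to XY3) was a pool of 30 oocytes, of which 10 measured 50–55 μm across and the remaining 20 measured 55–60 μm, taken at 18 days post partum (dpp) on the C57BL/6 background. XX and XY females were littermates from males of the B6.YTIR line, which carries a Mus musculus domesticus Y chromosome, so XY oocytes had this Y and developed in ovaries. XO females came from a separate cross, of carrier males of the Paf mutation backcrossed from C3H/HeSnJ, so the XO genotype cannot be told apart from this cross. The sources used here do not say how many females gave the oocytes of a pool, and p-values measure the spread between these pools.

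Splicing removes introns from pre-mRNA on the spliceosome, which assembles anew on each intron. The small nuclear ribonucleoproteins (snRNPs) U1 and U2 recognise the 5′ splice site and the branch point, and each is built on a ring of Sm proteins around its small nuclear RNA. SF3A and SF3B are multi-subunit parts of the U2 snRNP that hold it on the branch point. SR proteins bind exons through RNA recognition motifs, recruit these snRNPs and set which exons are used. A growing oocyte stores mRNA for meiosis and the early embryo, and transcription later stops, so transcripts counted at this stage include those laid down for later use.

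Each pool gave between 2130145 and 3157338 unique molecular identifiers (UMIs) on genes, and the 32 genes took between 5326 and 8933 of them, or 0.231 to 0.283% of gene UMIs. A UMI marks the 5′ end of 1 cDNA molecule, so levels of different genes can be set side by side without a correction for length. Levels are given as normalized CPM, the authors' signal in which UMIs are scaled by the gene total times a factor from the ERCC spike-ins. This factor does not carry the amount of spike-in per pool. Means stand with the SD over n = 3 pools of a genotype. In XO1, 1 UMI was worth 0.518 normalized CPM. XO1 stood apart from the other XO pools, with a mean Spearman correlation across genes of 0.646 to them, against 0.788 to 0.948 for the other 8 samples within their genotypes. Pools are numbered here as in the deposited labels, and the authors name another XO pool as the less similar one, so their numbers may differ from these. The oocyte label was borne out by its markers, of which 13 of 14 had a mean over 1 normalized CPM in each genotype, while Sohlh1 had no UMI in XO or XY pools. Of the 12 granulosa cell markers listed, 9 were among the genes of the matrix. Amhr2, Fst, Inha and Wt1 were at or near 0 (at most 0.651 normalized CPM). Others were counted in every pool, Nr5a2 at 21.9 to 51.6, Cyp19a1 at 3.62 to 44.4 and Kitl at 5.69 to 19.2. Fshr and Inhba lay between 0 and 4.52. The list summed to between 48.0 and 92.1 normalized CPM against 19071 or more for the oocyte list. Markers of theca, stroma, blood and endothelium summed to between 23.8 and 136. Y-linked check genes summed to at least 458 in XY pools and at most 2.26 in the others. In pooled oocytes, fewer oocytes with a transcript and less transcript per oocyte cannot be told apart.

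The members spanned more than 3 orders of magnitude. Snrpd1 had the highest mean over the 9 samples, at 756 normalized CPM, followed by Snrpb2 at 402, Snrpd3 at 241 and Srsf3 at 181. At the other end, Sf3a2 had 3 UMIs in all 9 samples together and Snrpert had 1. A filter on low counts let 21 members into the tests (9 SR, 4 Sm, 2 U1 or U2, 2 SF3A and 4 SF3B genes), and 11 did not pass it. Genes that work in 1 complex at fixed ratios of protein were thus far apart in UMI counts of 5′ ends, as the plot of levels by sample shows. Whether genes differ in how well their 5′ ends are captured was not tested.

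**Figure D1:**
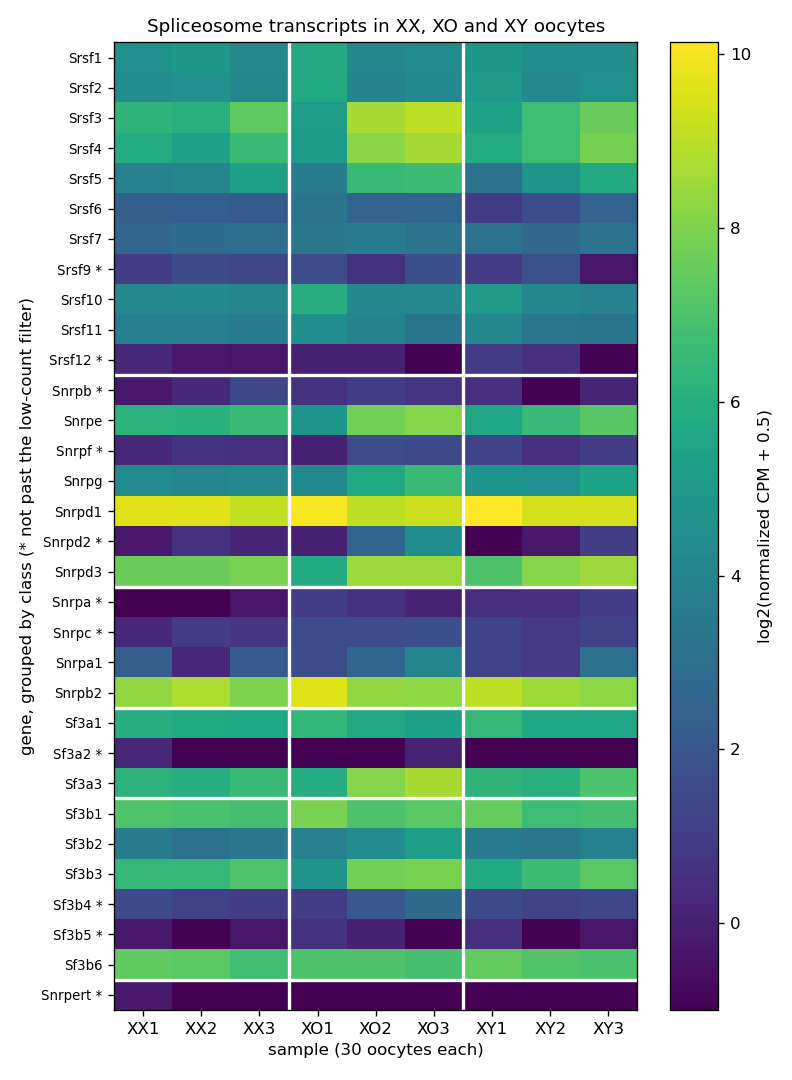
Level of each of the 32 spliceosome genes (rows, by class; stars mark the 11 genes not past the low-count filter) in each sample (columns), as log2 of normalized CPM with 0.5 added. Srsf3, Srsf4, Snrpe, Snrpd3 and Sf3b3 are darker in XO1 than in XO2 and XO3, while Srsf1, Srsf10 and Snrpb2 are brighter there.

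Srsf3 and Srsf4 led the SR genes. Srsf3, which encodes the smallest SR protein and also acts in mRNA export, was at 76.2, 63.7 and 165 normalized CPM in XX1, XX2 and XX3, at 34.2, 410.0 and 544 in XO1, XO2 and XO3, and at 42.3, 103 and 190.2 in XY1, XY2 and XY3. XO1 was the lowest of all 9 samples and the other XO pools were the highest, so the XO range covered both other genotypes. Srsf4, which encodes an SR protein with a pair of RNA recognition motifs, stood at 57.0, 41.0 and 97.2 in the XX pools, 32.6, 290.0 and 395 in the XO pools, and 58.1, 102 and 229 in the XY pools. Its order over pools was alike, with XO1 lowest. Srsf5, a further member with such a pair of motifs, was at 14.2, 16.5 and 40.2 in XX, 12.4, 90.5 and 97.7 in XO, and 8.37, 26.4 and 55.8 in XY, and here XY1 was lowest.

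A second set of SR genes had the opposite order. Srsf1, the prototype of the family, was at 23.5, 29.8 and 18.6 normalized CPM in the XX pools, 52.3, 17.1 and 20.3 in the XO pools, and 29.7, 22.8 and 22.3 in the XY pools. Srsf2, a component of nuclear speckles, ran between 15.5 and 32.5 in 8 samples and reached 53.3 in XO1. Srsf10, which represses splicing when dephosphorylated, was at 60.6 in XO1 and between 14.8 and 31.1 elsewhere. All of these were highest in XO1. Srsf11 was highest in XO1 too, at 22.8, against 9.60 to 18.1 in the others. Srsf7, which shares the export role of Srsf3, lay between 5.70 and 11.4 in all samples, and its XO pools (9.03 to 11.4) were all above its XX (5.70 to 7.62) and XY pools (5.86 to 8.75). Srsf6 was low, with 3 to 18 UMIs per sample and a range of 1.39 to 9.32 normalized CPM. Both sequences below lie upstream of SR genes with opposite order in XO1, Srsf5 (low) and Srsf1 (high), and show how their promoters differ in the letters searched. They are the 250 bases before the RefSeq start in build GRCm38.p6, 5′ to 3′ on the strand of the gene (plus in both), at chr12:80945249-80945498 for Srsf5 and chr11:88047123-88047372 for Srsf1, with capitals on CCGGAAG or its reverse complement, a core bound by ETS factors. Each window also overlaps an exon on the opposite strand, of Gm20337 for Srsf5 and of 2010015M23Rik for Srsf1.
Srsf5: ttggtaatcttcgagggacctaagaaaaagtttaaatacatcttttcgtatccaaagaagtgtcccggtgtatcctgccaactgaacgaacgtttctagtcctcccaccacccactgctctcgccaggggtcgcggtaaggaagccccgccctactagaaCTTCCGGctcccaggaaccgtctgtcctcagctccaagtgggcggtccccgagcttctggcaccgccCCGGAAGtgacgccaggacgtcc
Srsf1: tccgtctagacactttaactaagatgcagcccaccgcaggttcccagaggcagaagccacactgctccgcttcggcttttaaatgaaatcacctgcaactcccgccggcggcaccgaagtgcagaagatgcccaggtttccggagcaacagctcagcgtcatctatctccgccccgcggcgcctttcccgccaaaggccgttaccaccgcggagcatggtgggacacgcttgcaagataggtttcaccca
CCGGAAG stood 2 times before Srsf5 and was not found before Srsf1. Of the 27 members with a RefSeq promoter, 13 held it on either strand, or 48.1%, against 6.91% of all 32851 promoters of this length. Among tested genes it was in 11 of 20 members (55%), against 13.7% of the 7545 promoters that could be matched. The letters hold a CpG. Median CpG counts were 18.5 to 26 in the sets of members low, high or neither in XO1, against 6 over all promoters. The part of base composition in these shares was not tested. The letters were in 5 of 9 members that were low in XO1 (by the rule given below) and in 1 of 4 that were high. A link with the order over pools was not tested. CCAAT was in 8 of the 27 members (33.8% of all promoters) and TATAAA in 4 (12.4%), each counted on both strands. Such a match is a description of these windows and not a binding site.

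The Sm ring has 7 proteins, and in these oocytes 4 of their transcripts were well counted and 3 were scarce. Snrpd1 was the most abundant member in each of the 9 samples, at 800.4, 776 and 547 normalized CPM in the XX pools, 1032, 534 and 619 in the XO pools, and 1126, 694 and 675 in the XY pools. XO1 and XY1 were its highest samples. Snrpd3, whose protein pairs with SmB in the ring, was at 196, 190.1 and 238 in XX, 54.9, 365 and 364 in XO, and 129, 275 and 361 in XY. XO1 and XY1 were its lowest samples, the reverse of Snrpd1. Snrpe and Snrpg encode proteins that enter the ring together with SmF. Like Snrpd3, Snrpe was lowest in XO1 and XY1. It was at 28.0 in XO1 and 217 and 275 in XO2 and XO3, and between 48.3 and 150.3 in the other genotypes. Snrpg was at 19.9, 16.5 and 18.3 in XX, 19.7, 53.8 and 90.9 in XO, and 27.0, 24.1 and 43.8 in XY, with all 3 XY pools above all 3 XX pools.

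The other 3 ring genes were near the limit of detection. Snrpb, which encodes SmB, had 21 UMIs over the 9 samples (1, 2 and 7 in the XX pools, 2, 3 and 2 in XO, and 2, 0 and 2 in XY). Snrpf had 2, 3 and 3 UMIs in XX, 1, 5 and 4 in XO, and 4, 3 and 5 in XY. Snrpd2, whose protein pairs with SmD1, had 1, 3 and 2 UMIs in XX, 1, 11 and 38 in XO, and 0, 1 and 5 in XY. These counts put Snrpb at a mean of 0.938 normalized CPM and Snrpd1 at 756, although both encode proteins of the same ring. Snrpert had 1 UMI, in XX1, and its first bases match those of Snrpe, so the 2 cannot be separated by that count.

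Among the genes particular to U1 or U2, Snrpb2, which encodes the U2 protein U2B″, held most of the UMIs, at 323, 433 and 254 normalized CPM in the XX pools, 768, 318 and 307 in the XO pools, and 529.8, 379 and 305 in the XY pools. It was highest in XO1 and XY1, as Snrpd1 was. Snrpa1, whose protein binds U2B″ on the U2 snRNA, was far lower, at 4.63, 0.700 and 4.27 in XX, 2.59, 5.69 and 16.4 in XO, and 1.86, 1.30 and 8.15 in XY. That is 2 to 29 UMIs a sample. The U1 genes Snrpa and Snrpc did not pass the filter. Snrpa, whose protein binds a stem loop of the U1 snRNA, had 0, 0 and 1 UMIs in XX, 3, 2 and 1 in XO, and 2, 3 and 5 in XY. Snrpc, whose protein steadies U1 on the 5′ splice site, had 2, 4 and 4 in XX, 5 each in the XO pools, and 4, 4 and 6 in XY, and 32.6% of the 31-base words at its transcripts' first 100 bases also occur in 182 other genes, so its counts are uncertain.

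In SF3A, Sf3a1 and Sf3a3, which encode the large subunit and the subunit that completes SF3A on the U2 snRNP, were both well counted, and Sf3a2 was almost absent. Sf3a3 was at 71.2, 60.2 and 94.4 normalized CPM in the XX pools, 58.5, 273 and 409 in the XO pools, and 75.3, 64.1 and 126 in the XY pools. XO2 and XO3 were the highest samples, and XO1 was the lowest. Sf3a1 was at 60.9, 54.6 and 50.9 in XX, 82.8, 52.7 and 41.2 in XO, and 85.5, 48.8 and 48.3 in XY, with XO1 and XY1 highest. Sf3a2 had 2 UMIs in XX1 and 1 in XO3. None was counted in XY, where a count of 0 allows up to 3 UMIs over the 3 pools, or 0.364 normalized CPM (counting error only).

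In SF3B, Sf3b1, Sf3b6 and Sf3b3 took most of the UMIs. Sf3b1, whose protein clamps the branch point helix, was at 133, 122 and 116 normalized CPM in XX, 240.2, 131 and 156 in XO, and 183, 102 and 116 in XY. Sf3b6, whose protein lies on SF3B1 near the branch adenosine, was the steadiest of the tested members, at 173, 156 and 109 in XX, 129.96, 132 and 116 in XO, and 177, 139.7 and 122 in XY. Its highest sample was 1.62 times its lowest, a smaller ratio than for any other tested member. Sf3b3, a scaffold of the complex, was at 85.5, 85.4 and 134 in XX, 27.4, 223 and 238 in XO, and 56.2, 98.3 and 156 in XY. It was lowest in XO1, where Sf3b1 was highest. Sf3b2, which contacts the RNA upstream of the branch point, was at 12.8, 8.40 and 10.7 in XX, 14.0, 20.2 and 36.1 in XO, and 11.6, 10.1 and 14.5 in XY, and its 3 XO pools were all above its 3 XX pools. Sf3b4, the partner of Sf3b2, had 7, 5 and 5 UMIs in XX, 3, 7 and 12 in XO, and 5, 6 and 7 in XY. Sf3b5 had 1, 0 and 1, then 2, 1 and 0, then 2, 0 and 1 UMIs in the same order.

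Among SR genes, Srsf9 and Srsf12 were also below the filter. Srsf9 had 4, 7 and 7 UMIs in XX, 5, 2 and 5 in XO, and 3, 9 and 1 in XY. Srsf12 had 2, 1 and 1 in XX, 1, 1 and 0 in XO, and 3, 3 and 0 in XY. Neither gave a difference that these counts could resolve.

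The members thus fell into sets that moved in opposite directions between pools of 1 genotype. These sets were named after their values were seen and carry no test. In XO1, 9 of the 21 tested members (42.9%) were under XO2 and XO3 by over 2-fold, namely Srsf3, Srsf4, Srsf5, Snrpe, Snrpg, Snrpd3, Snrpa1, Sf3a3 and Sf3b3, and 33.5% of all 10993 tested genes did the same. Another 4 (19%), namely Srsf1, Srsf2, Srsf10 and Snrpb2, were over both by more than 2-fold, beside 14.5% of all tested genes. The shares of members were thus of the same order as those of all genes. The mean of XO2 and XO3 was 14.0 times XO1 for Srsf3, 10.5 times for Srsf4, 8.80 times for Snrpe and 8.39 times for Sf3b3, whereas XO1 was 3.35 times that mean for Srsf10, 3.02 times for Srsf2 and 2.45 times for Snrpb2. Srsf7 and Sf3b6 lay between, with the mean of XO2 and XO3 at 0.985 and 0.952 times XO1.

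Smaller differences of the same kind ran through the other genotypes. XY1 was under XY2 and XY3 by over 1.5-fold for 7 of 21 members (33.3%, all genes 19.4%), namely Srsf3, Srsf4, Srsf5, Srsf6, Snrpe, Snrpd3 and Sf3b3. XX3 was over XX1 and XX2 by over 1.5-fold for Srsf3, Srsf4, Srsf5 and Sf3b3 (19%, all genes 12.6%). Over the 21 members the median ratio of the highest to the lowest pool was 1.46 in XX, 3.44 in XO and 1.88 in XY, and over all tested genes with a UMI in every sample it was 1.57, 2.59 and 1.81. Oocyte markers moved with the pools as well. In XO1, XO2 and XO3, Zp3 was at 12.4, 341 and 570.2 normalized CPM, Padi6 at 212, 7273 and 16520.3, and Oosp1 at 9137, 2494 and 2495. Their part in the spread of the splicing genes was not tested.

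Because the sets cut across the complexes, the makeup of each class differed between pools. Srsf3 took 11.7% of SR gene UMIs in XO1 (95% Wilson interval 9.34 to 14.7) and 48.4% in XO3 (46.2 to 50.6), while Srsf1 took 18.0% (15.02 to 21.4) and 1.81% (1.31 to 2.497). Snrpd1 took 90.8% of Sm gene UMIs in XO1 (89.5 to 91.9) and 45.0% in XO3 (43.1 to 47.0). Sf3b1 took 58.0% of SF3B gene UMIs in XO1 (54.5 to 61.4) and 28.2% in XO3 (25.5 to 31.1). The intervals cover counting error only, and each pair lies apart by far more than that error.

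**Figure D2:**
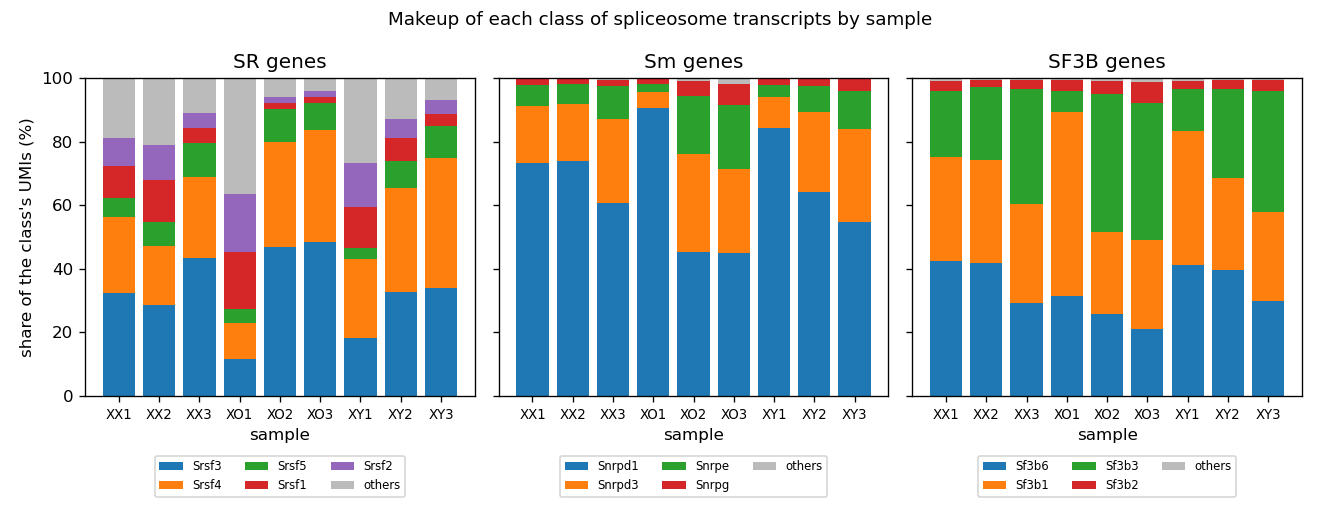
Share in percent of the UMIs of the SR, Sm and SF3B genes (panels) that each gene took in each sample. In XO1 Srsf3 is at 11.7% of the SR UMIs and Snrpd1 at 90.8% of the Sm UMIs, and in XO3 at 48.4% and 45.0%.

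Ratios of 2 genes within a sample do not depend on how samples are scaled. Per UMI of Srsf1 there were 3.24, 2.14 and 8.89 UMIs of Srsf3 in the XX pools, 0.653, 24.0 and 26.8 in the XO pools, and 1.42, 4.50 and 8.51 in the XY pools. Snrpd3 to Snrpd1 was 0.244, 0.245 and 0.436 in XX, 0.0532, 0.683 and 0.589 in XO, and 0.114, 0.396 and 0.535 in XY. Sf3b3 to Sf3b1 went from 0.114 in XO1 to 1.70 in XO2, and Sf3a3 to Sf3a1 from 0.706 in XO1 to 9.92 in XO3. For each of these 4 pairs XO1 was lowest and an XO pool highest of the 9 samples, and the XX and XY pools lay inside the XO range. The pairs were picked for this contrast.

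**Figure D3:**
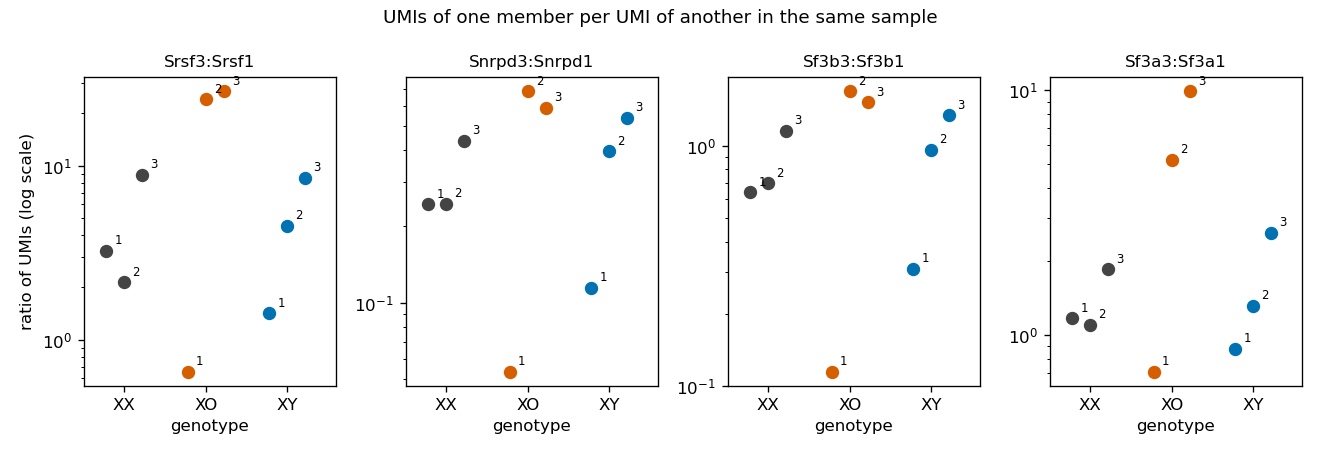
UMIs of the first gene per UMI of the second within a sample (log axis), for 4 pairs of genes from the same class, with samples by genotype and labelled by replicate number. XO1 is the lowest sample in each panel, at 0.653 for Srsf3 to Srsf1, and the other XO pools are the highest.

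The comparison of XX with XO asks what differs when an X chromosome is missing. In XX oocytes 4 of 21 tested members were lower than in XO oocytes at an unadjusted p below 0.05 (19.0%), and none was higher. Over all genes 16.7% were lower and 1.4% higher, so the share of members lower was near the background. The 4 were Snrpg, Sf3b2, Sf3a3 and Srsf4. The median log2 fold change was -0.61 over members and -0.46 over all tested genes. Below 0 were 20 of 21 members, beside 80.3% of all genes. Most genes thus lay on one side of 0 under the scaling used, the gene total times a TMM factor of the spike-ins. That factor is relative to each pool's spike-in total, so this shift is not one per amount of spike-in. Scaled by spike-in totals, the median over all genes was 0.42.

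Snrpg had a mean of 18.2 ± 1.75 normalized CPM in XX and 54.8 ± 35.6 in XO (n = 3 each), a log2 fold change of -1.58 (SE 0.50), or -1.13 relative to the median of all genes (adjusted p = 0.203, edgeR quasi-likelihood test with Benjamini-Hochberg adjustment). Sf3b2 was at 10.6 ± 2.21 and 23.4 ± 11.4, with a log2 fold change of -1.13 (SE 0.39, -0.68 relative to all genes, adjusted p = 0.214 by edgeR). Sf3b2 was the only one of the 4 whose XX and XO pools did not overlap. Sf3a3 (-1.71, SE 0.61, -1.25 relative to all genes, adjusted p = 0.218 by edgeR) and Srsf4 (-1.88, SE 0.81, -1.42 relative to all genes, adjusted p = 0.268 by edgeR) had XO1 below all 3 XX pools and XO2 and XO3 above them. No member passed after adjustment over all genes, nor did any other gene by edgeR (0% of all genes), though 1986 genes had an unadjusted p below 0.05. Without the filter on low counts, 6 of 32 members and 1607 of 28051 genes passed adjustment, and by DESeq2 with the spike-in factors no member and 467 of 10993 genes did. Srsf3 had as large a fold (-1.69, SE 0.88) and did not pass (adjusted p = 0.321 by edgeR). Members whose 3 XX pools were all below the 3 XO pools were Srsf6, Srsf7 and Sf3b2, or 3 of 21, and 13.6% of all genes did the same.

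The calls moved with single pools, with the scaling and with covariates. Without XO1, 9 of 22 members were lower in XX (Srsf3, Srsf4, Srsf5, Snrpe, Snrpg, Snrpd2, Sf3a3, Sf3b2 and Sf3b3), beside 34.2% of all genes, and all 9 passed adjustment. Snrpd2 failed the filter with all 9 samples and entered here only through XO2 and XO3, where it is high. Its calls here and below, where a pool was left out, are therefore no support. Srsf4 was then at -2.39 (adjusted p = 0.00856 by edgeR) and Snrpg at -1.98 (adjusted p = 0.00342 by edgeR). Without XO3 none was lower (7.95% of all genes), and without XX2 there were 2 (7.82%). Scaled by TMM on all genes in place of the spike-ins, Snrpg alone was called (-1.07), with 6.02% of all genes lower and 5.9% higher, and the median of all genes moved to -0.03. With TMM and without XO1, 8 of 22 members were lower and 5 higher in XX (Srsf1, Srsf2, Snrpd1, Sf3a1 and Sf3b6), beside 20.4% and 16.8% of all genes. Scaled by spike-in totals no member was called (0.482% of all genes lower and 2.64% higher), and the median of the members turned to 0.28 beside 0.42 over all genes. With 2 covariates estimated by sva, 4 members were lower in XX, Srsf3, Srsf4, Srsf5 and Snrpb2 (7.24% of all genes lower and 7.06% higher). Of the calls reported above only Srsf4 was kept. Snrpg (-0.23), Sf3a3 (-0.25) and Sf3b2 (-0.005) were not called there.

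XY oocytes have a single X as XO oocytes do, and a Y besides. Sf3a3 and Sf3b2 were lower in XY than in XO oocytes, 2 of 21 tested members (9.52%), and none was higher, with 8.24% of all genes lower and 1.69% higher. The Sf3a3 means were 88.6 ± 33.2 and 247 ± 177 normalized CPM, a log2 fold change of -1.48 (SE 0.60, -1.18 relative to all genes, adjusted p = 0.491 by edgeR). Sf3b2 was at 12.1 ± 2.23 and 23.4 ± 11.4, a log2 fold change of -0.95 (SE 0.39, -0.65 relative to all genes, adjusted p = 0.491 by edgeR). Both are shared with the comparison of XX with XO, which uses the same XO pools and is no independent support. Srsf6 and Srsf7 had all XY pools below all XO pools, as had 6.34% of all genes, and neither was called (adjusted p = 0.501 and 0.631 by edgeR).

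Pools with the same number deviated together in XY and XO (correlations of 0.818, 0.272 and 0.766), and when that number was fitted as a block Srsf5 was also lower in XY (log2 fold change -1.14, adjusted p = 0.262 by edgeR), which makes 3 members beside 14.1% of all genes. Without XO1, 9 of 22 members were lower in XY (27.6% of all genes), 6 of them after adjustment, and without XY3 there were 5 (11.8%). Without XO3 none was (2.35% of all genes), and without XO2, XY1 or XY2 there was 1 (5.61%, 4.58% and 2.6%). Without XO1 or XY3 the lower members included Snrpd2, and without XY1 or XY2 the 1 was Snrpd2. Snrpd2 entered these fits only through XO2 and XO3, where it is high. No member was called with TMM on all genes (3.68% of all genes lower and 5.39% higher) or with spike-in totals (0.664% and 0.573%). With 2 covariates estimated by sva, Srsf3, Srsf10 and Sf3a3 were lower and Snrpd3 higher in XY (8.48% and 9.77% of all genes). Sf3b2 was not called there (-0.22). At an adjusted p below 0.05 no member and 0.0364% of all genes passed in edgeR with all samples and no covariates.

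The comparison of XX with XY, among littermates, sets a second X against a Y chromosome. No member was called in either direction by edgeR without covariates, where 5.8% of all genes were, 4.39% lower and 1.41% higher in XX. By DESeq2 the count was 0 as well, with the spike-in factors (6.33% of all genes) and with its own size factors (5.25%). At an adjusted p below 0.05 no member and 0.0819% of all genes passed in edgeR without covariates. With 2 covariates estimated by sva in the edgeR fit, Srsf4 was called lower in XX, beside 20.4% of all genes called in either direction. Its log2 fold change was then -0.745 (adjusted p = 0.00507 by edgeR), so the absence of calls depended on the model. Log2 fold changes of members lay between -0.998 (Srsf4) and 0.47 (Srsf6), with a median of -0.23 beside -0.19 over all genes. The 95% intervals were narrowest for Sf3b6 (-0.65 to 0.64) and much wider for Srsf4 (-2.78 to 0.79) and Srsf3 (-2.05 to 1.78). Snrpg was the nearest to a call, with 18.2 ± 1.75 in XX and 31.6 ± 10.6 in XY (log2 fold change -0.79, SE 0.49, adjusted p = 1.00 by edgeR), and its pools did not overlap, as for 11.7% of all genes in this direction. It was called without XO1 (adjusted p = 0.350 by edgeR), as all samples of the fit share 1 estimate of the spread.

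**Figure D4:**
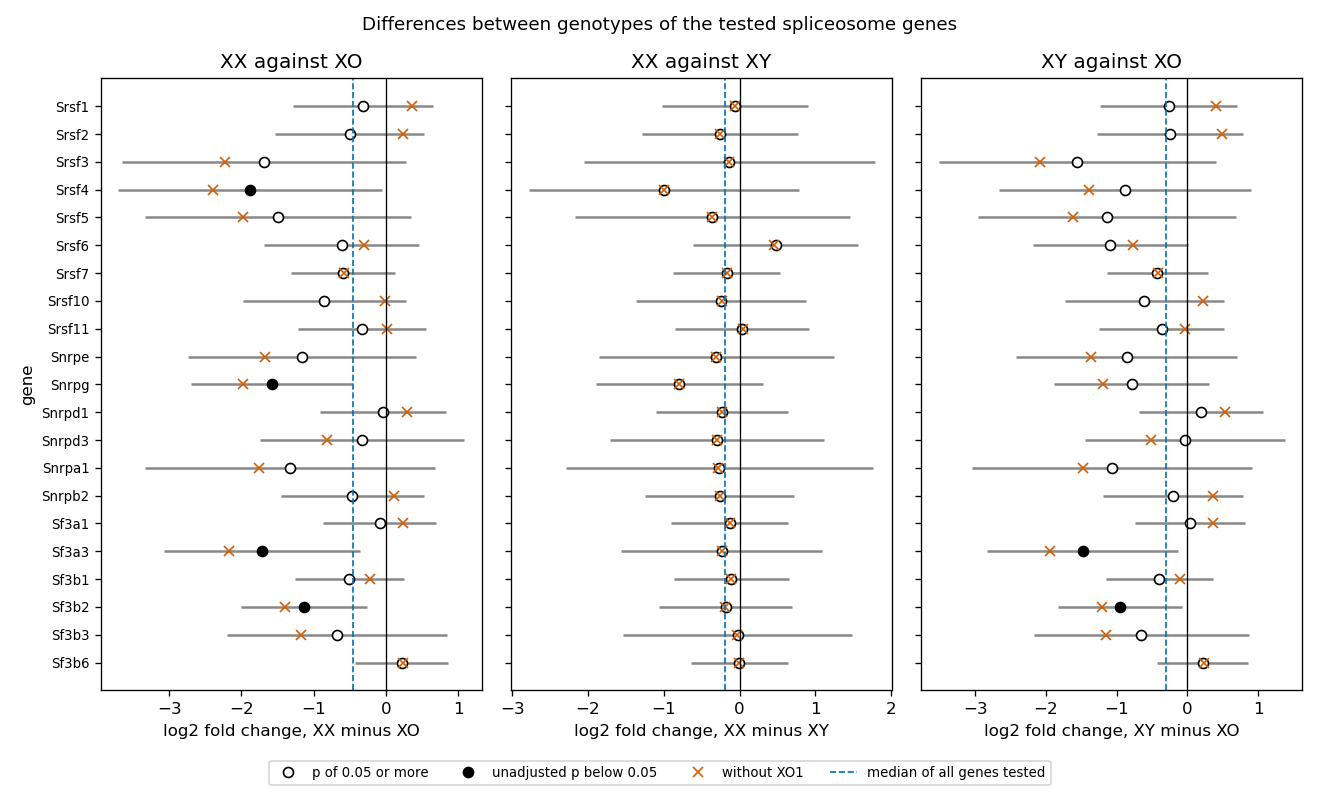
Log2 fold change with its 95% interval for the 21 tested members in the 3 comparisons, filled where the unadjusted p is below 0.05, with the estimate without XO1 as a cross and the median of all tested genes as a dashed line. Leaving out XO1 moves Srsf3 from -1.69 to -2.23 and Srsf1 from -0.32 to 0.36 in XX against XO, and moves the estimates of XX against XY little.

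The levels from which the authors regressed batch effects gave another order. In these values, tested with limma, 5 members were higher in XX than in XO (Srsf3, Snrpe, Snrpd3, Sf3b3 and Sf3b6) and Srsf10 was lower, beside 36.3% of all genes higher and 7.78% lower, with a median over all genes of 0.28. The fit had no term for the batch effects already removed, so its p-values may be too small. Snrpd3 went from a log2 fold change of -0.33 in the counts to 1.44, and Sf3b3 from -0.68 to 1.26. In XY against XO, 8 were higher in XY and Srsf10 lower, beside 38% and 6.02% of all genes. Srsf4, called lower in XX than in XO from the counts, was at 0.27 and not called here. The direction for these genes therefore differed between the deposited matrices, and neither was checked against another measurement here. In XX against XY, Srsf4 (-0.74, adjusted p = 0.0197 by limma) and Snrpg (-0.61, adjusted p = 0.0276 by limma) were lower in XX in the batch-regressed values. Beside them 12.6% of all genes were lower and 10.6% higher.

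The other genes of the splicing pathway were read from 9 lists of 144 autosomal genes, of which 123 were tested. In XX against XO, 27 were lower in XX and none higher (16.7% and 1.4% of all genes): 4 of 13 tri-snRNP and U5 genes, 4 of 16 genes for U1 and branch site proteins, 5 of 20 of the PRP19 complex and step factors, 2 of 8 LSM genes, 1 of 5 minor spliceosome genes, 4 of 18 SR protein kinases, transporters and relatives, 3 of 12 of the SMN complex and Sm methylation, 1 of 6 of the exon junction complex and 3 of 25 hnRNP and PTB genes. The median log2 fold change over the 123 was -0.56. Without XO1 the count was 57 of 127 (34.2% of all genes), and with TMM on all genes 9 were lower and 4 higher (6.02% and 5.9% of all genes). In XX against XY 4 of 123 were lower in XX, beside 4.39% of all genes (1 tri-snRNP gene, 1 minor spliceosome gene and 2 SR relatives). In XY against XO 13 were lower and 1 higher in XY, beside 8.24% and 1.69% of all genes (4 tri-snRNP, 1 U1 or branch site, 2 PRP19, 2 SR relatives, 1 SMN, 1 exon junction and 2 hnRNP genes lower), and with the replicate block 27 were lower and 1 higher (14.1% of all genes lower).

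The called gene with the largest fold change of each list showed the same spread over XO pools in many cases. Ctnnbl1, of the PRP19 group, was at 4.99, 4.20 and 8.53 normalized CPM in XX, 4.66, 72.4 and 212 in XO, and 2.32, 5.86 and 15.1 in XY (XX minus XO -4.01, adjusted p = 0.203 by edgeR). Ddx39b, the helicase that loads U2 and exports mRNA, had no UMI in XO1 and stood at 22.7 and 64.9 in XO2 and XO3 and at 0 to 6.64 elsewhere (XX minus XO, fitted, -4.98, adjusted p = 0.203 by edgeR). Snrnp27, a tri-snRNP protein, was instead higher in all 3 XO pools (23.3, 41.9 and 80.2) than in any XX (7.70 to 16.5) or XY pool (14.0 to 18.7), with log2 fold changes of -1.99 and -1.56 for XX and XY against XO. Pnn, a speckle protein, was likewise at 35.7, 39.3 and 49.7 in XO against 16.1 to 21.4 in XX (-1.17, adjusted p = 0.203 by edgeR), and it was also called with TMM on all genes and without XO1. Lsm5 (-2.01), Snupn (-2.01), Hnrnpf (-1.30), Rbm8a (-1.13) and Rnpc3 (-0.82) led their lists in XX against XO, with adjusted p of 0.203 to 0.251 by edgeR. With TMM on all genes the calls of Lsm5, Snupn, Rbm8a and Rnpc3 were lost. In XY against XO the same held for Ctnnbl1 (-3.59), Ddx39b (-3.14), Hnrnpf (-1.12) and Rbm8a (-1.13), and for Acin1 (-1.20) and Tgs1 (-0.92), of which Ddx39b, Acin1 and Tgs1 were not called with TMM. Ddx39b and Acin1 passed the filter on low counts only with XO2 and XO3, where they are high. Their calls, also counted in the lists above, are therefore no support for a difference. Tgs1 was highest in XO1 (16.6, against 7.75 and 7.90 in XO2 and XO3), and without XO1 its log2 fold change was -0.47 and not called.

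Between XX and XY the named genes were Zrsr1, Sart1 and Clk4. Zrsr1, an imprinted retrogene that encodes a minor spliceosome protein, was at 1.78, 1.75 and 1.22 in XX, 1.55, 2.58 and 2.26 in XO, and 5.58, 4.56 and 4.53 in XY. It was higher in all 3 XY pools than in any other sample (XX minus XY -1.60, adjusted p = 0.395, and XY minus XO 1.17, adjusted p = 0.485, by edgeR), and the call against XO was lost without XO1. Zrsr1 passed the filter on low counts only through the XY pools, where it is high. Its calls, also counted in the lists above, are therefore no support for a difference. Sart1, a tri-snRNP protein, was at 3.35 to 4.90 in XX and 8.14 to 13.0 in XY (-1.40, adjusted p = 0.761 by edgeR). Clk4, a kinase of SR proteins, was at 20.3 to 22.1 in XX and 29.9 to 41.1 in XY (-0.74, adjusted p = 0.803 by edgeR), a call lost with TMM on all genes.

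X-linked splicing genes differ in copy number between the genotypes and were kept apart. Of 10 tested, 2 were higher in XX than in XO (Rbm41, 1.02, and Rbmx2, 0.81), 1 was higher in XX than in XY (Htatsf1, 1.14), and in XY against XO 3 were lower (Nono, Upf3b and Htatsf1) and Rbm10 was higher. The shares over all genes were 1.4% and 1.41% higher in XX, and 8.24% lower and 1.69% higher in XY. Rbm41 passed the filter on low counts only with the XX pools, where it is high, so its call is no support for a difference. That call was also lost without XO1 (1.01). Htatsf1, a U2 factor, was at 17.1, 14.0 and 16.1 in XX, 20.7, 12.9 and 11.3 in XO, and 10.7, 6.51 and 4.53 in XY. Nono, a nuclear RNA-binding protein, was at 49.2 in XO1 and 197 and 340 in XO2 and XO3, the same split as in the autosomal set. Median log2 fold changes over the 10 were 0.11, 0.68 and -0.36 in the 3 comparisons. These counts and medians moved with the scaling. With TMM on all genes, 3 were higher in XX than in XO (median 0.55, 5.9% of all genes higher). Against XY 4 were higher in XX (median 0.82, 2.58% of all genes). In XY against XO 1 was lower and 1 higher (median 0.002, 3.68% and 5.39% of all genes).

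Counts of most members came from sequence of their own. At the first 100 bases of the transcripts, where UMIs are read, words of 31 bases were shared with another gene for 4 of the 32 members, Snrpe (29.3%), Snrpd1 (16.1%), Snrpc and Snrpert, and the other genes that share with Snrpe or Snrpd1 had 1 and 2 UMIs. Srsf2 overlaps Mettl23 and Mfsd11, and Srsf1 overlaps an antisense gene, both on the opposite strand, and the reads were aligned by strand. Same-strand overlaps, which strand does not separate, were annotated for Srsf4 (A930004J17Rik), Srsf11 (Gm43362), Sf3a3 (the pseudogene Gm12917 and Mir697), and Sf3b3 and Sf3b4 (snoRNAs). Snrpa1 and Snrpert overlap protein-coding genes on the same strand, Gm45213 and Rnf24.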

How the data were processed

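RNA from 9 pools of 30 oocytes was sequenced by Smart-seq3 with 5′ UMIs and ERCC spike-ins, polyA primed. The authors aligned stranded reads to GRCm38 (mm10) with Hisat2, which the submitters' processing notes also name together with limma, and deposited UMI counts per gene. A second deposited matrix holds a signal, called normalized CPM, which was checked to be CPM on a library size of gene UMIs multiplied by a TMM factor, computed on the 79 ERCC rows. One more holds log2 values from which the authors removed batch effects, assessed by sva, with the cleaningY function of jaffelab.

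Samples were grouped by the labelled genotype. The column named XO, with no number, was taken as XO1 from its label. Counts were tested with edgeR 4.0.16 in R 4.3.3 (quasi-likelihood F test, spike-in TMM factors, filterByExpr by genotype, all 9 samples, 1 mean per genotype, two-sided) on 10993 genes. A call is an unadjusted p below 0.05, as in the study, with Benjamini-Hochberg adjusted p over all genes beside it. Alternatives used DESeq2 1.42.0, limma 3.58.1 and sva 3.50.0. On simulated counts of 10993 genes for XX against XO, 41% of genes changed 2-fold and 90% of those changed 4-fold were called, and 4.67% of unchanged genes. The members and lists were chosen with earlier results of these data known. All members were named, with values by sample for the 2 highest of each class, called members and those below the filter, and of the other lists the called gene with the largest fold change. Coordinates are those deposited. Promoters are from RefSeq (GRCm38.p6), matched by symbol for 27 of 32 members (the first start listed). Intervals of shares are Wilson intervals at 95%. The replicate number was taken to pair XY and XO pools, where correlations of deviations were over 0.1 in each pair. In order of number, XX gave 0.450, -0.427 and 0.665 with XO and 0.416, -0.058 and 0.711 with XY. XX1 and XX3 thus deviated with pools of their number and XX2 did not, so XX was not taken as paired. The labels do not say what the number stands for. Depth was 2130145 to 3157338 UMIs per pool, and counts of single genes carry the counting error of those UMIs.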

Additional observations from a re-analysis of the deposited data

How the results depend on the processing

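Counts of called members are given first for XX with XO, then for XX with XY, then for XY with XO, and were 4, 0 and 2 as reported, each followed by the share of all tested genes called in that setting (18.1, 5.8 and 9.93% as reported). They were 1, 0 and 0 with TMM on all genes (11.9, 5.35 and 9.07%), 0, 0 and 0 with spike-in totals (3.12, 2.58 and 1.24%), 10, 2 and 5 without the filter on low counts (14.1, 4.33 and 9.75%; 6, 0 and 2 after adjustment), 4, 1 and 4 with 2 surrogate variables (14.3, 20.4 and 18.2%), 6, 2 and 9 with limma on the batch-regressed values (44.1, 23.1 and 44%), and 0, 0 and 0 at an adjusted p below 0.05. DESeq2 gave 5, 0 and 2 with the spike-in factors (21.2, 6.33 and 12.1%) and 3, 0 and 2 with its own (13.7, 5.25 and 10.3%). The replicate block, where XX2 did not deviate with the other pools of its number, gave 5, 0 and 3 (23, 9.16 and 16.6%). Leaving out 1 pool at a time gave 0 to 9, 0 to 1 and 0 to 9, the lowest without XO3 (9.31 and 3.74% with XO compared) and the highest without XO1 (36.9, 11.1 and 32.1%). Snrpd2 entered fits with pools left out only where XO2 and XO3 stayed, and only through those pools. Settings chosen after seeing the data gave 11, 4 and 9 without XO1 and XY1 (41.7, 15.7 and 27.8%), 10, 2 and 8 without the pools numbered 1 (37.2, 10.8 and 25.8%), and 13, 1 and 10 with TMM and without XO1 (37.1, 10.3 and 33.9%). Median log2 fold changes of members turned to 0.28 (XX against XO) and 0.49 (XX against XY) with spike-in totals, and were -0.02 (XX against XO) and 0.09 (XY against XO) in the batch-regressed values. Of members called as reported or in the setting, signs turned with TMM and without XO1 in XX against XO for Srsf1 (0.91), Srsf2 (0.79), Snrpd1 (0.84) and Sf3a1 (0.76), and in XY against XO for Srsf1 (0.79) and Srsf2 (0.86). In the batch-regressed values they turned in XX against XO for Srsf3 (0.66), Srsf4 (0.27), Snrpe (0.85), Snrpd3 (1.44) and Sf3b3 (1.26), and in XY against XO for Srsf3 (0.56), Srsf4 (1.01), Snrpe (0.90), Snrpg (0.37), Snrpd3 (1.501), Sf3a3 (0.020) and Sf3b3 (1.09). With 2 surrogate variables Snrpd3 turned in XY against XO (0.52). Of the members reported as called in XX against XO, only Srsf4 was called with them. In XX against XY the 1 called with them was Srsf4, which also passed adjustment. Counted over all 21 members, called or not, and in the same order of comparisons, signs turned for 9, 7 and 9 in the batch-regressed values, 5, 8 and 6 with surrogate variables, 12, 17 and 3 with spike-in totals, and 9, 7 and 6 with TMM and without XO1. The cause was not tested.

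With 3 pools a genotype, 2-fold differences were often missed in simulated counts for XX against XO. No simulated pool stood apart as XO1 does, so the simulation does not show what XO1 does to the tests. The 11 members below the filter were left out of the reported tests, and of these Snrpd2 and Snrpa were called in XX against XO without it.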

Other observations

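Snrpn, the imprinted gene for SmN that the choice of genes left out, was at 1.42, 0.700 and 1.83 normalized CPM in the XX pools, 0, 1.55 and 2.82 in the XO pools, and 2.32, 0.977 and 3.62 in the XY pools. It was thus as scarce as Snrpb, the gene for SmB whose place SmN takes in neurons, and both were far below Snrpd3. Rbmx was also near 0, at 0 to 0.712 in all samples, and Srpk3, a kinase of SR proteins, had a UMI in XY3 only.

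Summed over a class, SR genes were at 236, 222 and 380.2 normalized CPM in XX, 291, 874 and 1122 in XO, and 233, 313 and 560.2 in XY. The Sm sum, in which Snrpd1 and Snrpd3 move in opposite directions, stayed between 901 and 1373 in all samples. The SF3B sum stayed between 352 and 552.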
